A study of Mus musculus with 8 samples.

Results

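A set of 62 weakly expressed genes, of 22173 in the deposited table, was read at lower levels in infarcted mouse hearts after DAPA than after vehicle. A gene belonged to it if its mean over the 4 vehicle libraries was from 0.15 to below 1 FPKM, if that mean was at least 1.7 times the mean of the 4 DAPA libraries, and if the highest DAPA value lay below the lowest vehicle value. FPKM counts the reads of a gene per kilobase of its transcript, scaled to the size of the library. Predicted genes and several large families (identifiers such as Gm or Rik numbers, and symbols starting with Slc, Kcn, Il, Ccl, Cxcl, Wnt, Fgf, Sema or Trim) were left out by name. The genes were chosen by these values, in the same 8 libraries, so what follows on the 62 genes describes them and tests nothing.

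The hearts came from C57BL/6J mice whose left anterior descending coronary artery had been tied off to cause a myocardial infarction, an operation that all 8 libraries share. Each of 4 libraries came from mice given vehicle, and each of the other 4 from mice given 1 mg/kg DAPA a day for 4 weeks after the operation. DAPA is the common short name of dapagliflozin, a diabetes and heart failure drug that blocks the glucose transporter SGLT2 of the kidney tubule. No sham-operated heart is among the libraries, no transgene or gene deletion is named in the labels, and the labels give neither age, sex nor the chamber sampled. They also do not say whether each library stands for its own animal, so p-values measure the spread between these libraries.

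Transcripts read below 1 FPKM in a whole heart can come from a few cells that make much of them or from many that make little. In bulk tissue, fewer cells of a type and less RNA per cell cannot be told apart. The set mixes several kinds of such genes. Interferon-response genes are switched on when interferon binds its receptor and activated transcription factors bind promoter elements built from repeats of TTTC or, on the other strand, GAAA. Genes of cell division are on in cycling cells, which are rare in the adult heart, and receptors of lymphocytes and granulocytes come from blood-borne cells that enter an infarct.

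The range from 0.15 to below 1 FPKM held 2276 genes, of which 222 had a vehicle mean at least 1.7 times the DAPA mean. Of these, 72 also had no overlap between the groups, and 10 were left out by name. The mirrored rule, for genes with a DAPA mean in the same range and higher in every DAPA library, found 102. Within the range, 111 genes (4.88%) lay lower in every DAPA library and 180 (7.91%) higher, whatever their ratio. The 62 genes stood between percentile 22 and 34.5 of the vehicle means of all genes with any read. A ratio of 2 or more was seen in 41 of them and a ratio of 4 or more in 13.

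**Figure D1:**
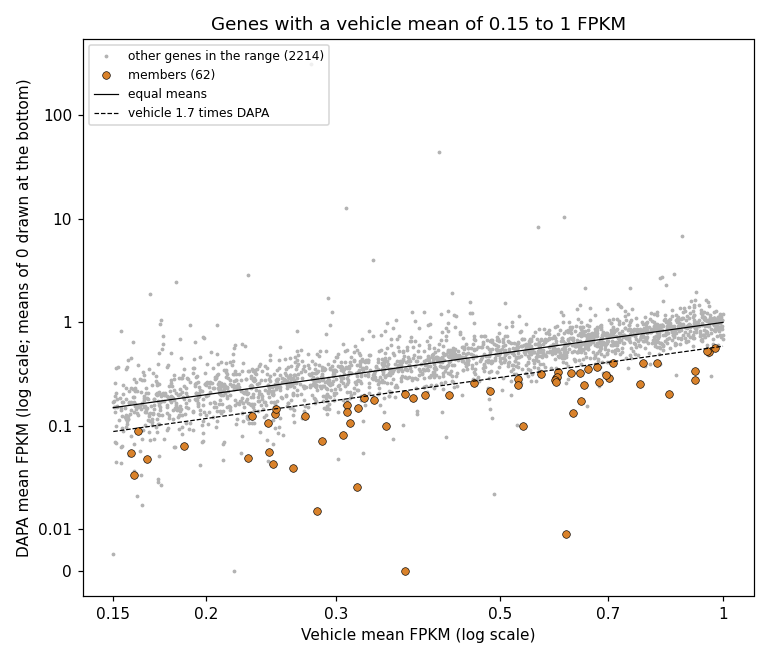
Mean FPKM in the 4 DAPA libraries against mean FPKM in the 4 vehicle libraries, both on log scales, for the 2276 genes with a vehicle mean from 0.15 to below 1. Orange points are the 62 genes of the set, all under the dashed line of a 1.7-fold lower DAPA mean; grey points are the other 2214.

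Libraries were of like depth, with 24990393 to 26823456 reads each, and the heart muscle genes Myh6, Tnnt2 and Nppa stood at 2190 to 2560, 5411 to 5989 and 8052 to 12436 FPKM. Across the 14749 genes tested with limma (adjusted p below 0.05), 6.73% were called lower with DAPA and 7.78% higher, and the median log2 difference was 0.01. In the authors' deposited table, 0.844% of 15527 genes were listed as lower, namely the 131 with both a fold below 0.5 and a q-value below 0.05, and 8.65% were lower at that q-value whatever their fold. Of 25 atrial muscle markers, 19 rose and 1 fell with DAPA, with a median log2 difference of 1.31. Their summed levels were 8650 to 9591 FPKM in vehicle and 13863 to 14567 FPKM in DAPA libraries. Nppa is on this list and makes up most of these sums. Of 16 histone and immediate early genes, taken as signs of RNA quality, 9 rose and none fell, with no gene of the list lower at an unadjusted p below 0.05 and none lower by limma voom. The part of these shifts in the 62 genes was not tested.

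Of the 62 genes, 47 were also past the limma threshold, beside 6.73% of all genes. The same libraries had chosen them, so nothing is read from that count. It was 31 without vehicle library 1 (878 genes lower and 979 higher over all genes tested), 40 by limma voom (9.36% of all genes lower, 9.15% higher) and 45 by the q-value of the authors' deposited table (8.65%). Every DAPA library lay below every vehicle library in 8.6% of all genes tested and, by the rule, in all 62. The median log2 difference of the set was -0.84, against 0.01 for the other 2214 genes of the range. The summed FPKM of the 62 genes was 30.6, 30.6, 30.6 and 29.9 in vehicle libraries 1 to 4 and 13.0, 12.7, 12.3 and 12.9 in DAPA libraries 1 to 4. Vehicle libraries 1 to 4 held the highest value for 16, 16, 19 and 11 of the 62 genes, and DAPA libraries 1 to 4 held the highest DAPA value for 16, 18, 16 and 11 of the 61 with a DAPA read. The rule asked for a gap between all libraries of the groups, so these sums and counts are no sign of stability.

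The reads behind these values are few. Per gene, the 4 vehicle libraries together held 30 to 918 reads with a median of 133, and the 4 DAPA libraries 0 to 536 with a median of 52.5. For 22 genes the vehicle total was under 100 reads, and for 35 at least 1 DAPA library had under 10. Exact binomial 95% intervals on the ratio of reads, which cover counting error only, began above 1 for 61 genes and above 1.7 for 27. The exception was Treml4, a receptor of myeloid cells, with a ratio of 1.82 in reads (31 against 17, counting interval 0.978 to 3.51). These intervals pool the 4 libraries of a group and leave out the spread between libraries. The rule had chosen the genes by the ratio of these same reads, so the counts of intervals describe the set and test nothing.

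**Figure D2:**
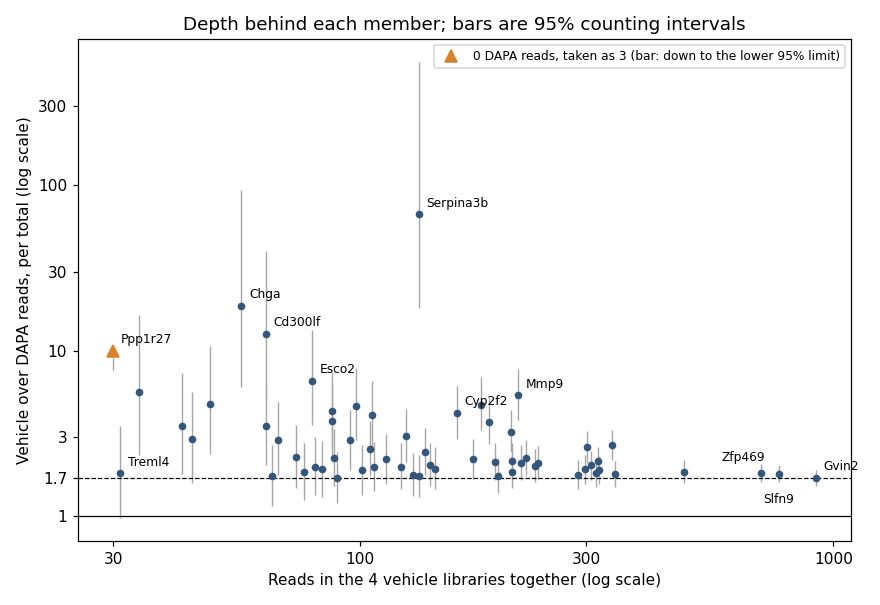
Ratio of vehicle to DAPA reads against the vehicle reads summed over 4 libraries, both on log scales, for the 62 genes; bars are exact 95% counting intervals, and the dashed line marks 1.7. The interval of Serpina3b, with 2 DAPA reads, runs from 18.0 to 555, and that of Gvin2, with 536, from 1.54 to 1.91; Ppp1r27, with no DAPA read, is drawn at 9.998, the ratio that 3 DAPA reads would give, with a bar down to its lower limit of 7.64.

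The reads also varied less between libraries of one group than those of other genes in the range. The variance of depth-adjusted reads divided by their mean had a median of 1.71 in the vehicle group and 1.76 in the DAPA group for the 62 genes, against 3.02 and 2.71 for the other 2214 genes of the range. Groups that do not overlap were asked for by the rule, which favours a small spread.

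At the edges of the rule the values ran on without a gap. Gvin2 and Stac2 lay just inside the ratio, at 1.71 and 1.72, and Brca2 (0.235 against 0.139 FPKM, a ratio that rounds to 1.7) and Gvin1 (0.701 against 0.414 FPKM, 1.69) just outside. Gvin2 and Gpr176, at 0.975 and 0.959 FPKM in vehicle, were the highest of the set, and Ces1f (1.05 against 0.242 FPKM) and Tmem178 (1.10 against 0.487 FPKM) the first above it. At the lower edge stood Aspg and Ffar2, at 0.159 and 0.160 FPKM, with Mcoln2 (0.131 against 0.0406 FPKM) and Creg2 (0.116 against 0.0415 FPKM) below.

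**Figure D3:**
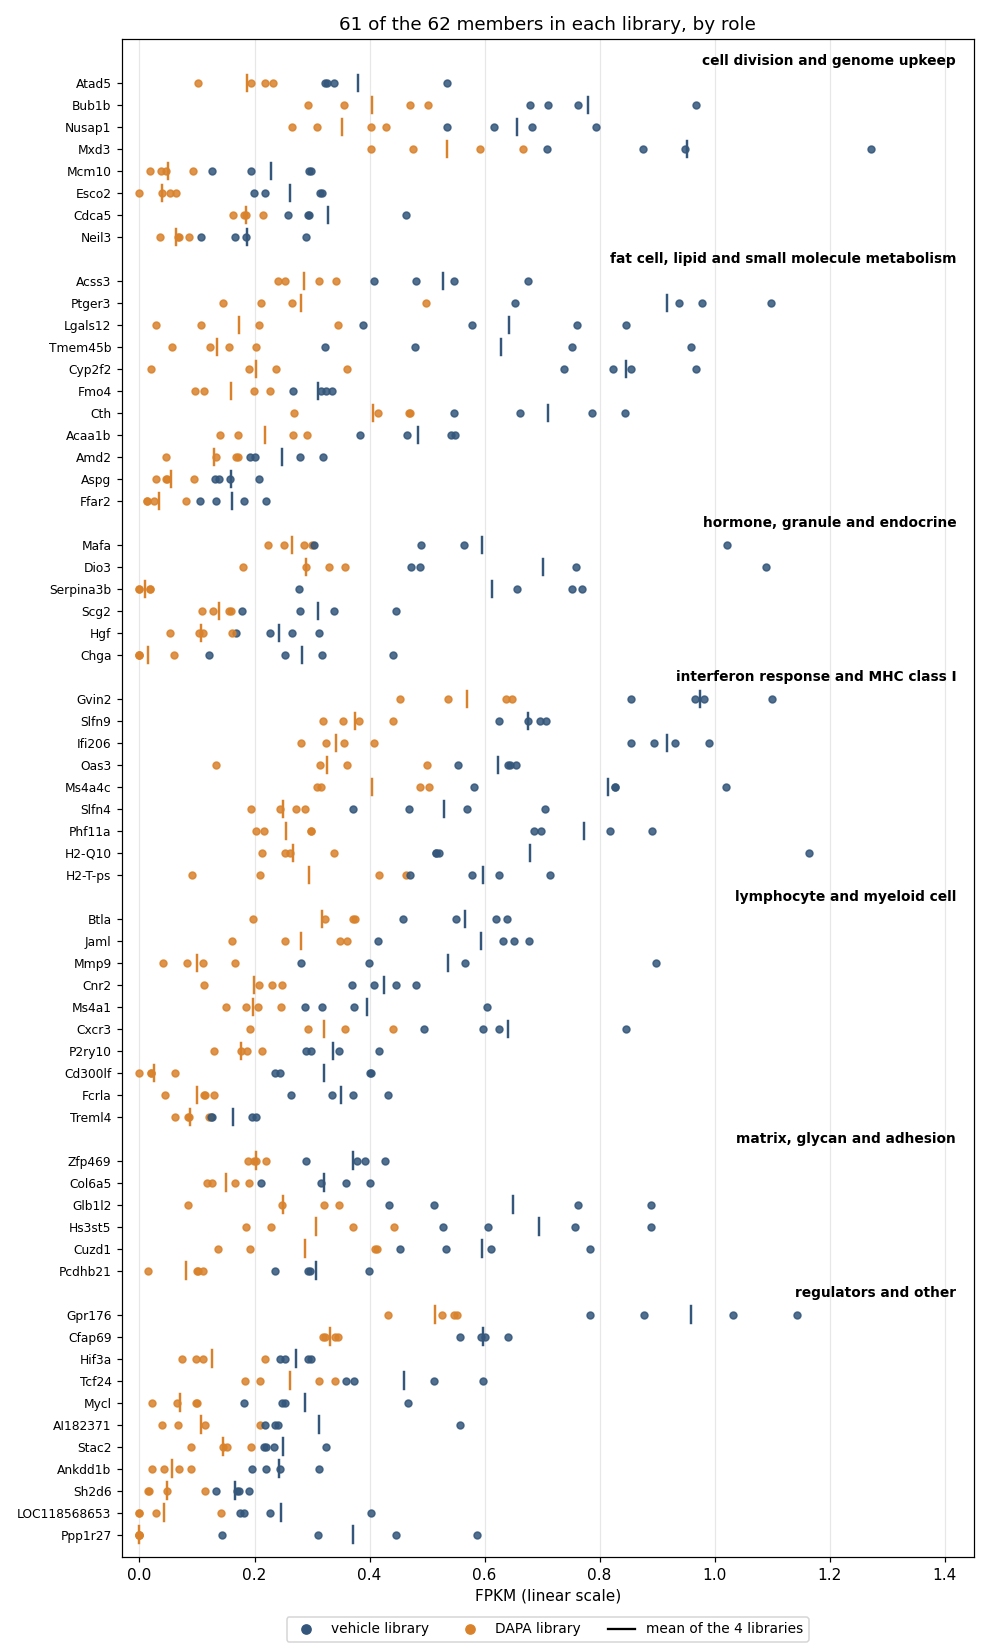
FPKM, on a linear scale, of 61 of the 62 genes in the 4 vehicle libraries (blue) and the 4 DAPA libraries (orange), by role; upright bars are group means. Each orange row ends before its blue row begins, as the rule asked, and 6 genes, Serpina3b, Chga, Ppp1r27, Esco2, Cd300lf and LOC118568653, have orange points at 0.

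Interferon-response and MHC class I genes made up 9 of the 62. Summed over the group, they had 6.17 to 7.07 FPKM in the vehicle libraries and 2.77 to 3.38 FPKM in the DAPA libraries, and their median ratio was 2.02. Promoter windows (250 bases before to 50 after the annotated start, RefSeq, mouse build GRCm38.p6) were at hand for 8 of the 9, and 4 of these held, on one strand or the other, TTTC followed by any 2 bases and a second TTTC, the core of the interferon-stimulated response element. All 4 are shown, since the genes differ in family but share this stretch close to their start. The matched letters are in capitals, and each window is written 5′ to 3′ on the strand of its gene.
Ifi206 (chr1:173491269-173491568, minus strand): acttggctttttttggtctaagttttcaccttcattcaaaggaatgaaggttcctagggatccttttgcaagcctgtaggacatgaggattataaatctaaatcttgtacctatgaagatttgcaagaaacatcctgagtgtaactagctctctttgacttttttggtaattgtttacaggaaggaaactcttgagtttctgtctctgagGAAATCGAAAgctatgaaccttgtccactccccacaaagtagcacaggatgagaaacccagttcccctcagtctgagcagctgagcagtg
Oas3 (chr5:120777610-120777909, minus strand): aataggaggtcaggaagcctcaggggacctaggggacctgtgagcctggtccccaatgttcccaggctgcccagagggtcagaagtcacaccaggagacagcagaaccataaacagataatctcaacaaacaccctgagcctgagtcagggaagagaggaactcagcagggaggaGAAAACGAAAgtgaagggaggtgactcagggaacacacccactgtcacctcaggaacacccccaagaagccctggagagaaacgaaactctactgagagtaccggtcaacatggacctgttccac
Slfn9 (chr11:82991781-82992080, minus strand): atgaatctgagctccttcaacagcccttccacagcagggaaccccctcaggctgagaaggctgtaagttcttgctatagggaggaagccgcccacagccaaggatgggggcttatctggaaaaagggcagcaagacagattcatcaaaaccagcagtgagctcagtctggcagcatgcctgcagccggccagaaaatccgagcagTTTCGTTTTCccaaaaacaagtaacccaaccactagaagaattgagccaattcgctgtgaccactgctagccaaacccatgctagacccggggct
Phf11a (chr14:59297473-59297772, minus strand): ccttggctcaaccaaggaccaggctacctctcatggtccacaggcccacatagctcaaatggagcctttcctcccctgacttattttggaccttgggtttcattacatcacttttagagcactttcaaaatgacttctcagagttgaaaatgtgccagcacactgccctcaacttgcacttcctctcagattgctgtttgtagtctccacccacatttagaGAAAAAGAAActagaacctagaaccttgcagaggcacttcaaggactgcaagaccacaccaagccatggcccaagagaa

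The match begins at position -40 in Ifi206, -75 in Oas3, -45 in Slfn9 and -29 in Phf11a, with the first base of the annotated transcript counted as 0. Over all 54 windows of the 46 genes of the set with a window, 7 (13.0%) held this core on either strand, against 3.37% of 21169 windows of 17414 genes of the table. The other 3 belonged to Bub1b, Fcrla and Jaml. The motif is a description of letters: no binding was measured here.

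Ifi206 encodes a member of the mouse AIM2-like family of nucleic acid sensors. It was read at 0.895, 0.931, 0.854 and 0.990 FPKM in vehicle libraries 1 to 4 and 0.281, 0.356, 0.409 and 0.323 FPKM in DAPA libraries 1 to 4. All 4 vehicle libraries were close to one another and far above the DAPA libraries, with a ratio of 2.68 in reads (341 against 127, counting interval 2.18 to 3.32). Of 11 relatives in the Ifi200 family tested outside the set, 9 fell and none rose (none higher at an unadjusted p below 0.05, none by limma voom).

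Oas3 encodes an oligoadenylate synthetase, an enzyme that senses double-stranded RNA and feeds the antiviral RNase L. Its level was 0.640, 0.644, 0.553 and 0.655 FPKM with vehicle and 0.314, 0.501, 0.360 and 0.133 FPKM with DAPA (libraries 1 to 4 of each). DAPA library 4 stood lowest by a wide margin and DAPA library 2 came nearest to the vehicle range. The ratio was 1.90 in reads (320 against 168, counting interval 1.58 to 2.31), and 5 of 6 other Oas family genes tested fell, with none higher by limma, at an unadjusted p below 0.05 or by limma voom.

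Slfn9, a Schlafen family gene, had the longest transcript of the group and 767 vehicle reads. Slfn9 values were 0.696, 0.706, 0.626 and 0.676 FPKM in vehicle libraries 1 to 4 and 0.354, 0.319, 0.441 and 0.381 FPKM in DAPA libraries 1 to 4. The vehicle libraries lay within a narrow band, and the ratio was 1.81 in reads (767 against 423, counting interval 1.61 to 2.05). Slfn4, the other Schlafen gene of the set, stood at 0.529 ± 0.142 against 0.249 ± 0.0412 FPKM. Outside the set, 4 of 5 Schlafen genes tested fell, Slfn1 from 1.6 to 0.577 FPKM (adjusted p = 4.47e-05).

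Gvin2 belongs to the very large interferon-inducible GTPases and had the most reads of the 62 genes. Its values were 1.10, 0.854, 0.965 and 0.982 FPKM with vehicle and 0.648, 0.537, 0.453 and 0.637 FPKM with DAPA (libraries 1 to 4 of each). Both groups spread over a like width, and the ratio was 1.71 in reads (918 against 536, counting interval 1.54 to 1.91). Phf11a, a PHD-finger gene near other copies of its kind, was read at 0.819, 0.891, 0.698 and 0.686 FPKM in vehicle libraries 1 to 4 and 0.299, 0.217, 0.203 and 0.298 FPKM in DAPA libraries 1 to 4. Its groups lay far apart relative to their own spread.

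The remaining genes of this group were Ms4a4c, a membrane-spanning gene of the Ms4a family, at 0.814 ± 0.179 against 0.404 ± 0.107 FPKM, H2-Q10, an MHC class I gene known mainly from liver, at 0.679 ± 0.323 against 0.267 ± 0.0524 FPKM, and H2-T-ps, from the T region of the MHC, at 0.597 ± 0.101 against 0.295 ± 0.175 FPKM. Vehicle library 2 alone held 1.16 FPKM of H2-Q10, while the other three vehicle libraries lay between 0.515 and 0.521. Near-identical copies exist for H2-Q10, H2-T-ps, Gvin2, Slfn9, Phf11a and Oas genes, and the labels do not say how reads shared by such copies were assigned, so their single values are uncertain.

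In the wider list of type I interferon response genes, 67 of the 81 tested outside the set fell with DAPA and none rose. At an unadjusted p below 0.05, 2 were higher, limma voom called none higher, and 1 was called higher without vehicle library 2. The list's median log2 difference was -0.59, beside 0.01 for all genes, and its summed level was 1477 to 1543 FPKM in vehicle and 1042 to 1093 FPKM in DAPA libraries. Its smallest p-values belonged to Oasl2 (17.1 to 7.98 FPKM, adjusted p = 4.47e-08), Ifi207 (9.09 to 4.19 FPKM, adjusted p = 1.4e-07), Ifit3 (23.9 to 13.9 FPKM, adjusted p = 5.38e-07) and Irf7 (42.4 to 26.2 FPKM, adjusted p = 8.78e-07), the last being the factor that amplifies interferon production. Of 29 antigen presentation genes tested outside the set, 16 fell and none rose (none higher at an unadjusted p below 0.05 or by limma voom), led by the MHC class II genes H2-Aa (138 to 93.1 FPKM, adjusted p = 3.54e-06) and H2-Eb1 (82.4 to 54.4 FPKM, adjusted p = 3.79e-06).

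**Figure D4:**
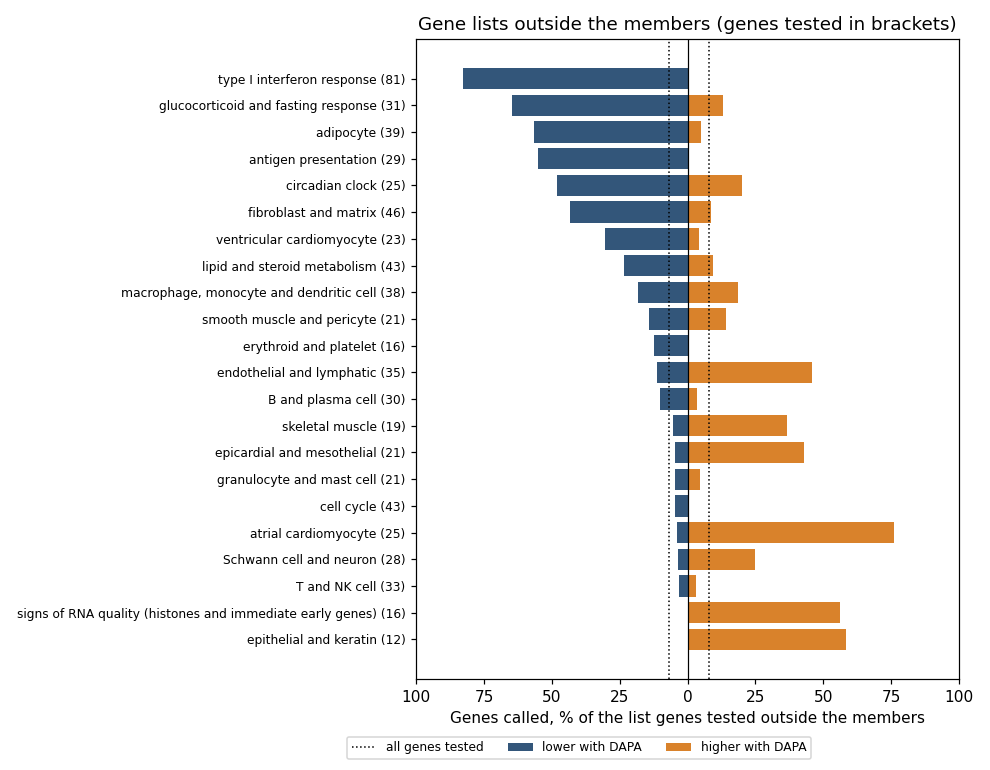
Share of the genes of each list, outside the 62, that limma called lower (blue, to the left) or higher (orange, to the right) with DAPA; the number tested is in brackets and the dotted lines mark 6.73% and 7.78%, the shares over all genes. The interferon list reaches furthest to the left with 82.7%, and the cell cycle list stays at 4.65%.

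Cell division and genome upkeep accounted for 8 of the 62 genes, with a median ratio of 1.98. Their summed level was 3.55 to 4.19 FPKM in the vehicle libraries and 1.62 to 2.02 FPKM in the DAPA libraries. Among them were genes for DNA replication, for the cohesin ring that holds sister chromatids together, and for the mitotic spindle.

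Esco2, the acetyltransferase that locks cohesin in place during replication, had the largest ratio of the group. Esco2 levels were 0.199, 0.219, 0.317 and 0.314 FPKM with vehicle and 0.0532, 0.0643, 0 and 0.0397 FPKM with DAPA (libraries 1 to 4 of each). DAPA library 3 had no read of it, and the ratio was 6.58 in reads (79 against 12, counting interval 3.57 to 13.3). Mcm10, needed to start replication forks, was read at 0.298, 0.127, 0.194 and 0.294 FPKM in vehicle libraries 1 to 4 and 0.0935, 0.0181, 0.0382 and 0.0466 FPKM in DAPA libraries 1 to 4. Vehicle library 2 and DAPA library 1 came closest to each other, and the ratio was 4.67 in reads (98 against 21, counting interval 2.89 to 7.87).

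Atad5, which takes the sliding clamp PCNA off DNA, had the most reads of this group. Its values were 0.338, 0.323, 0.326 and 0.535 FPKM with vehicle and 0.195, 0.232, 0.102 and 0.219 FPKM with DAPA (libraries 1 to 4 of each). Vehicle library 4 stood apart at the top and DAPA library 3 at the bottom, with a ratio of 2.03 in reads (307 against 151, counting interval 1.67 to 2.49). Bub1b encodes the spindle checkpoint kinase BubR1. Bub1b levels were 0.709, 0.679, 0.968 and 0.762 FPKM in vehicle libraries 1 to 4 and 0.293, 0.355, 0.502 and 0.470 FPKM in DAPA libraries 1 to 4. Within the vehicle group, library 3 was highest, and the ratio was 1.92 in reads (298 against 155, counting interval 1.58 to 2.35).

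Nusap1 encodes a microtubule-binding protein of the spindle. It stood at 0.617, 0.795, 0.682 and 0.534 FPKM with vehicle and 0.265, 0.428, 0.309 and 0.403 FPKM with DAPA (libraries 1 to 4 of each), with a ratio of 1.87 in reads (209 against 112, counting interval 1.48 to 2.37). Mxd3, a partner of Max in the Myc network that is expressed around S phase, stood at 1.27, 0.948, 0.709 and 0.876 FPKM in vehicle libraries 1 to 4 and 0.475, 0.402, 0.667 and 0.592 FPKM in DAPA libraries 1 to 4. The distance between the highest DAPA and the lowest vehicle library was small for Mxd3, and its ratio was 1.79 in reads (129 against 72, counting interval 1.33 to 2.42). Cdca5, or sororin, which protects cohesin, had 0.327 ± 0.0922 against 0.186 ± 0.0221 FPKM, and Neil3, a glycosylase that repairs oxidised DNA bases, 0.187 ± 0.0763 against 0.0637 ± 0.0211 FPKM.

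Outside the set, the cell cycle list moved little. Of 43 genes tested, 2 fell and none rose, beside 5 lower and none higher at an unadjusted p below 0.05, and limma voom called 3 lower and none higher. Those that fell were Cdt1, a licensing factor of replication (1.93 ± 0.377 to 1.12 ± 0.326 FPKM, adjusted p = 0.0225), and Ube2c, which works with the anaphase-promoting complex (2.50 ± 0.713 to 1.52 ± 0.284 FPKM, adjusted p = 0.0351). The count was 1 without vehicle library 3, vehicle library 4, DAPA library 2, DAPA library 3 or DAPA library 4, and 4 without DAPA library 1. The list's summed level was 71.3 to 74.9 FPKM in vehicle and 65.5 to 72.8 FPKM in DAPA libraries, ranges that overlap, and its median log2 difference was -0.16. Of the 8 other Mcm genes tested, none fell or rose, with 4 lower at an unadjusted p below 0.05 and 2 lower by limma voom; Mcm6 and Mcm5 came nearest with 5.81 to 4.91 FPKM (adjusted p = 0.0713) and 2.28 to 1.85 FPKM (adjusted p = 0.0764).

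Genes of lymphocytes and myeloid cells made up 11 of the 62, with a median ratio of 2.01. Summed over the group, they had 4.11 to 5.05 FPKM in the vehicle libraries and 1.8 to 2 FPKM in the DAPA libraries. They span B cells, T cells and granulocytes.

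Btla, an inhibitory receptor of lymphocytes, had the most reads among them. Btla was found at 0.457, 0.620, 0.551 and 0.639 FPKM with vehicle and 0.372, 0.375, 0.323 and 0.197 FPKM with DAPA (libraries 1 to 4 of each). Vehicle library 1 came nearest to the DAPA group, and the ratio was 1.79 in reads (288 against 161, counting interval 1.47 to 2.18). Jaml encodes an adhesion molecule by which leukocytes cross epithelium. Jaml values were 0.65, 0.632, 0.678 and 0.415 FPKM in vehicle libraries 1 to 4 and 0.161, 0.253, 0.349 and 0.360 FPKM in DAPA libraries 1 to 4, so that vehicle library 4 stood below the other three, and the ratio was 2.12 in reads (237 against 112, counting interval 1.68 to 2.67).

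Cnr2 encodes the cannabinoid receptor of immune cells. Its values were 0.407, 0.481, 0.369 and 0.446 FPKM with vehicle and 0.231, 0.112, 0.209 and 0.248 FPKM with DAPA (libraries 1 to 4 of each), with DAPA library 2 lowest and a ratio of 2.14 in reads (193 against 90, counting interval 1.66 to 2.79). Mmp9, gelatinase B, is stored in neutrophil granules and cuts matrix after infarction. It was read at 0.282, 0.899, 0.398 and 0.566 FPKM in vehicle libraries 1 to 4 and 0.0404, 0.166, 0.0824 and 0.111 FPKM in DAPA libraries 1 to 4. Vehicle library 2 was highest, the spread was wide in both groups, and the ratio was 5.37 in reads (215 against 40, counting interval 3.82 to 7.73).

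Cd300lf, an inhibitory receptor of myeloid cells, was read at 0.244, 0.236, 0.402 and 0.401 FPKM with vehicle and 0.0611, 0, 0.0208 and 0.0203 FPKM with DAPA (libraries 1 to 4 of each). That is 63 vehicle reads against 5, with none in DAPA library 2, and the counting interval of the ratio (12.6) ran from 5.12 to 40.1. Of 9 other Cd300 genes tested 1 fell, Cd300lg, and none rose, with 2 higher at an unadjusted p below 0.05 and none by limma voom.

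B cell genes of the set were Ms4a1, which encodes CD20, at 0.396 ± 0.143 against 0.197 ± 0.0400 FPKM, and Fcrla, an Fc receptor-like gene of B cells, at 0.350 ± 0.0706 against 0.1 ± 0.0379 FPKM. Cxcr3, the receptor by which activated T cells follow interferon-induced chemokines, stood at 0.641 ± 0.148 against 0.321 ± 0.105 FPKM. P2ry10, a lymphocyte receptor, stood at 0.337 ± 0.0584 against 0.177 ± 0.0350 FPKM, and Treml4 at 0.162 ± 0.0433 against 0.0884 ± 0.0245 FPKM.

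Marker lists of these cells, counted outside the set, are read against the 6.73% of all genes called lower and the 7.78% called higher. Among 30 B and plasma cell genes tested, 3 fell (10%) and 1 rose (3.33%). Jchain, which joins IgM and IgA chains, went from 8.45 to 1.57 FPKM (adjusted p = 4.57e-06), Cd72 from 8.37 to 5.61 (adjusted p = 0.00482) and Cd79b, a part of the B cell receptor, from 2.36 to 1.18 (adjusted p = 0.0186), while Xbp1 went from 44.5 to 54.3 (adjusted p = 0.000206). At an unadjusted p below 0.05, 7 were lower and 2 higher. The list's median log2 difference was -0.243, with 23 of the 30 below 0. The summed level of the list was 141 to 147 FPKM in vehicle and 134 to 149 FPKM in DAPA libraries, and Fcrl5 had no read. Xbp1, which rose, makes up a large part of that sum, and the list was not summed without it.

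Among 33 T and NK cell genes tested, 1 fell and 1 rose (3.03% each), both shares below those of all genes: Ctla4 (1.23 to 0.596 FPKM, adjusted p = 0.00104) and Gzma (0.541 to 0.971 FPKM, adjusted p = 0.0182), the latter not called without DAPA library 3 or by limma voom. The list's summed level was 22 to 27.6 FPKM in vehicle and 21.9 to 26.6 FPKM in DAPA libraries. Among 21 granulocyte and mast cell genes, also below the shares of all genes at 4.76% each way, 1 fell, Hp (27.7 to 9.49 FPKM, adjusted p = 1.38e-05), which fat cells and liver also make, and 1 rose, Lcn2 (9.02 to 12.4 FPKM, adjusted p = 0.00604). At an unadjusted p below 0.05, 5 of the 21 were lower and 1 higher. The median log2 difference was -0.197, with 15 of the 21 below 0. Without vehicle library 1 or vehicle library 2, 2 of the list were called lower. Its summed level was 53.0 to 63.9 FPKM in vehicle and 36.1 to 40.2 FPKM in DAPA libraries, and without Hp 28.2 to 29.8 FPKM in vehicle and 27.7 to 30.5 FPKM in DAPA libraries, ranges that overlap. Camp and Epx were at 0, and the neutrophil genes S100a8 and S100a9 stood at 3.41 against 1.95 FPKM (adjusted p = 0.133) and 3.35 against 2.17 FPKM (adjusted p = 0.147). Of 38 macrophage, monocyte and dendritic cell genes, 7 fell and 7 rose (18.4% each). The part of these cell types in the values of the set was not tested.

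Fat cell, lipid and small molecule metabolism took in 11 of the 62 genes, with a median ratio of 2.91. Their summed level was 5.27 to 5.99 FPKM in the vehicle libraries and 1.75 to 2.41 FPKM in the DAPA libraries. Lgals12 encodes galectin-12, a protein of fat cell lipid droplets. Lgals12 was found at 0.760, 0.577, 0.389 and 0.846 FPKM in vehicle libraries 1 to 4 and 0.208, 0.107, 0.0283 and 0.346 FPKM in DAPA libraries 1 to 4. DAPA library 4 came close to vehicle library 3, and DAPA library 3 was far below the other DAPA libraries. The ratio was 3.74 in reads (187 against 50, counting interval 2.72 to 5.22).

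Ptger3 encodes a prostaglandin E2 receptor that restrains fat breakdown in fat cells. Its level was 0.653, 0.977, 0.939 and 1.10 FPKM with vehicle and 0.266, 0.498, 0.145 and 0.212 FPKM with DAPA (libraries 1 to 4 of each), with a ratio of 3.25 in reads (208 against 64, counting interval 2.44 to 4.37). Within the DAPA group, library 2 stood highest. Of 3 other prostaglandin E receptor genes tested, none fell or rose, and none did so at an unadjusted p below 0.05 or by limma voom.

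Ffar2 encodes a receptor for short-chain fatty acids. Ffar2 values were 0.134, 0.220, 0.181 and 0.105 FPKM in vehicle libraries 1 to 4 and 0.0134, 0.0260, 0.0137 and 0.0801 FPKM in DAPA libraries 1 to 4, from 48 vehicle reads against 10, and DAPA library 4 held most of the latter. Tmem45b encodes a membrane protein. Tmem45b levels were 0.479, 0.958, 0.323 and 0.751 FPKM with vehicle and 0.156, 0.123, 0.202 and 0.0564 FPKM with DAPA (libraries 1 to 4 of each). The vehicle group spread widely, libraries 2 and 4 being the highest, and the ratio was 4.74 in reads (180 against 38, counting interval 3.32 to 6.91).

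Cyp2f2, a cytochrome P450 best known from airway club cells of the mouse, was read at 0.823, 0.737, 0.967 and 0.854 FPKM in vehicle libraries 1 to 4 and 0.360, 0.0205, 0.238 and 0.190 FPKM in DAPA libraries 1 to 4. DAPA library 2 was near 0 while the vehicle libraries lay close together, and the ratio was 4.21 in reads (160 against 38, counting interval 2.94 to 6.17). Acss3, a mitochondrial ligase that couples short-chain acids to coenzyme A, was read at 0.547, 0.408, 0.675 and 0.481 FPKM with vehicle and 0.342, 0.311, 0.253 and 0.240 FPKM with DAPA (libraries 1 to 4 of each). Neither group held an outlying library, and the ratio was 1.83 in reads (315 against 172, counting interval 1.52 to 2.22); the 2 other Acss genes tested did not pass the threshold in either direction, nor an unadjusted p below 0.05, nor limma voom.

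The other genes of the group were Cth, which makes cysteine and hydrogen sulfide, at 0.710 ± 0.133 against 0.406 ± 0.0948 FPKM, and Acaa1b, a peroxisomal thiolase, at 0.484 ± 0.0777 against 0.218 ± 0.0727 FPKM. Fmo4, a flavin monooxygenase, stood at 0.311 ± 0.0298 against 0.159 ± 0.0637 FPKM, and Aspg, an asparaginase homologue, at 0.159 ± 0.0350 against 0.0545 ± 0.0285 FPKM. Amd2, a close copy of the S-adenosylmethionine decarboxylase gene Amd1, stood at 0.248 ± 0.0622 against 0.130 ± 0.0582 FPKM, and reads may be shared between the copies. Ptger3 and Cth are next to each other among the table's genes in the genome, and so are Amd2 and Hs3st5.

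Of these genes, Aspg, Ffar2 and Tmem45b are on a list of fat cell markers. Of 39 adipocyte genes tested outside the set, 22 fell (56.4%) and 2 rose (5.13%), beside 6.73% and 7.78% of all genes. The list's median log2 difference was -0.45, and its summed level was 3343 to 3646 FPKM in vehicle and 2776 to 2893 FPKM in DAPA libraries. Thrsp (68.4 to 40.8 FPKM, adjusted p = 1.84e-07), Cyp2e1 (22.5 to 3.17 FPKM, adjusted p = 1.07e-06) and Nnat (2.78 to 0.293 FPKM, adjusted p = 1.41e-06) fell, and Npr3 rose (4.12 to 13.8 FPKM, adjusted p = 3.69e-08). Adipoq, the defining hormone of fat cells, went from 12.7 ± 2.35 to 3.46 ± 1.25 FPKM (adjusted p = 7.75e-05). No gene of the list was at 0 in every library, and the part of fat tissue in the values of the set was not tested. Of 43 lipid and steroid metabolism genes, 10 fell (23.3%) and 4 rose (9.30%).

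The secretory and endocrine genes were 6, with a median ratio of 2.35. Summed over the group, they had 2.54 to 3.15 FPKM in the vehicle libraries and 0.663 to 0.931 FPKM in the DAPA libraries. Serpina3b, one of the mouse serpin A3 copies, had the largest ratio of means in the set that could be computed. Serpina3b levels were 0.277, 0.752, 0.769 and 0.656 FPKM in vehicle libraries 1 to 4 and 0.0185, 0.0179, 0 and 0 FPKM in DAPA libraries 1 to 4. That is 133 vehicle reads against 2, with a read ratio of 66.5 and a counting interval from 18.0 to 555. Vehicle library 1 was well below the other vehicle libraries. Of 7 other Serpina3 genes tested 1 fell, Serpina3c (1.35 to 0.805 FPKM, adjusted p = 0.0260), which limma voom did not call, and none rose, with none higher at an unadjusted p below 0.05.

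Chga encodes chromogranin A, a protein of hormone and catecholamine granules. Its values were 0.121, 0.254, 0.440 and 0.318 FPKM with vehicle and 0.0605, 0, 0 and 0 FPKM with DAPA (libraries 1 to 4 of each). All 3 DAPA reads came from DAPA library 1, against 56 in vehicle, and the read ratio of 18.7 had a counting interval from 6.07 to 93.2. Scg2, or secretogranin II, from the same granules, was read at 0.338, 0.178, 0.279 and 0.445 FPKM in vehicle libraries 1 to 4 and 0.127, 0.110, 0.159 and 0.155 FPKM in DAPA libraries 1 to 4. The lowest vehicle library, library 2, lay close to the DAPA group, and the ratio was 2.26 in reads (88 against 39, counting interval 1.53 to 3.38).

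The 4 other granule genes tested, Chgb, Scg3, Scg5 and Pcsk1n, had 0.0594 to 0.147 FPKM in vehicle and neither fell nor rose, with none past an unadjusted p of 0.05 or limma voom. Among 28 Schwann cell and neuron markers tested outside the set, 7 rose and 1 fell, Uchl1 (51.4 to 46.4 FPKM, adjusted p = 0.0478). Uchl1 was not called without any one of vehicle libraries 2 to 4 or DAPA libraries 2 to 4, and without vehicle library 1 the list had 2 called lower. Dbh, which makes noradrenaline, rose from 1.59 to 2.43 FPKM (adjusted p = 0.00532), while Chga was lower in every DAPA library.

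Dio3, the deiodinase that inactivates thyroid hormone, was read at 1.09, 0.758, 0.471 and 0.487 FPKM with vehicle and 0.289, 0.180, 0.358 and 0.329 FPKM with DAPA (libraries 1 to 4 of each). Vehicle libraries 1 and 2 were above vehicle libraries 3 and 4, and the ratio was 2.45 in reads (137 against 56, counting interval 1.78 to 3.40). Dio2, the deiodinase that activates the hormone, rose from 7.94 to 10.2 FPKM (adjusted p = 0.00687). Mafa, a transcription factor known from insulin-making beta cells, was read at 0.490, 0.304, 1.02 and 0.564 FPKM in vehicle libraries 1 to 4 and 0.301, 0.251, 0.223 and 0.286 FPKM in DAPA libraries 1 to 4. Vehicle library 3 was far above the other vehicle libraries, vehicle library 2 just cleared the DAPA group, and the ratio was 2.22 in reads (173 against 78, counting interval 1.69 to 2.94). Hgf, the hepatocyte growth factor made by mesenchymal cells, stood at 0.243 ± 0.0610 against 0.107 ± 0.0437 FPKM.

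Matrix, glycan and adhesion genes were 6, with a median ratio of 2.20. Their summed level was 2.83 to 3.19 FPKM in the vehicle libraries and 0.976 to 1.58 FPKM in the DAPA libraries. Zfp469, a very long zinc finger gene whose human counterpart is mutated in brittle cornea syndrome, had 704 vehicle reads. Its levels were 0.427, 0.392, 0.379 and 0.290 FPKM with vehicle and 0.189, 0.220, 0.199 and 0.203 FPKM with DAPA (libraries 1 to 4 of each). The DAPA libraries were almost equal, and the ratio was 1.83 in reads (704 against 384, counting interval 1.62 to 2.08).

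Col6a5 encodes a chain of collagen VI. Its values were 0.315, 0.401, 0.358 and 0.212 FPKM in vehicle libraries 1 to 4 and 0.166, 0.126, 0.191 and 0.117 FPKM in DAPA libraries 1 to 4, vehicle library 4 being closest to the DAPA group, with a ratio of 2.15 in reads (318 against 148, counting interval 1.76 to 2.63). Of 4 other collagen VI genes tested, 3 fell and none rose (none higher at an unadjusted p below 0.05 or by limma voom), among them Col6a1 (69.9 to 55.3 FPKM, adjusted p = 2.78e-05). The 3 that fell are far more abundant and fell by less, with a ratio of 1.27 for Col6a1. Col6a6, the weakly read one, stood at 0.165 against 0.154 FPKM (adjusted p = 0.911). Of 46 fibroblast and matrix genes tested outside the set, 20 fell (43.5%) and 4 rose (8.70%), beside 6.73% and 7.78% of all genes. The list's summed level was 3560 to 3677 FPKM in vehicle and 3140 to 3416 FPKM in DAPA libraries.

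Hs3st5 encodes an enzyme that adds sulfate to heparan sulfate chains. Hs3st5 values were 0.606, 0.528, 0.889 and 0.756 FPKM with vehicle and 0.372, 0.228, 0.443 and 0.185 FPKM with DAPA (libraries 1 to 4 of each), with a ratio of 2.26 in reads (224 against 99, counting interval 1.78 to 2.90). Both groups were spread out. None of 3 other Hs3st genes tested fell or rose, and none did so at an unadjusted p below 0.05 or by limma voom. Glb1l2, a relative of beta-galactosidase, was read at 0.762, 0.513, 0.433 and 0.889 FPKM in vehicle libraries 1 to 4 and 0.348, 0.0841, 0.248 and 0.320 FPKM in DAPA libraries 1 to 4. DAPA library 2 was lowest, vehicle library 3 came nearest to the DAPA group, and the ratio was 2.62 in reads (301 against 115, counting interval 2.10 to 3.27).

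Pcdhb21, a cell adhesion gene of the clustered beta protocadherins, was read at 0.297, 0.399, 0.236 and 0.294 FPKM with vehicle and 0.0995, 0.110, 0.102 and 0.0142 FPKM with DAPA (libraries 1 to 4 of each). DAPA library 4 stood far below the other DAPA libraries. The ratio was 3.78 in reads (87 against 23, counting interval 2.37 to 6.28), and of 20 other beta protocadherin genes tested none fell or rose, nor did any at an unadjusted p below 0.05 or by limma voom. These genes resemble one another closely, so reads may be shared between them. Cuzd1, which encodes a protein with CUB and zona pellucida-like domains, stood at 0.595 ± 0.141 against 0.288 ± 0.145 FPKM.

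The last 11 genes are regulators and genes of other kinds, with a median ratio of 2.91. Summed over the group, they had 3.93 to 4.40 FPKM in the vehicle libraries and 1.6 to 1.77 FPKM in the DAPA libraries. Gpr176, an orphan receptor known from the clock of the mouse suprachiasmatic nucleus, had 484 vehicle reads. Gpr176 levels were 1.14, 1.03, 0.877 and 0.783 FPKM in vehicle libraries 1 to 4 and 0.526, 0.432, 0.553 and 0.548 FPKM in DAPA libraries 1 to 4. DAPA libraries 1, 3 and 4 were nearly equal with library 2 below them, and the ratio was 1.87 in reads (484 against 259, counting interval 1.6 to 2.18).

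Hif3a encodes the hypoxia-inducible factor subunit that can restrain the other two. Its values were 0.245, 0.299, 0.294 and 0.252 FPKM with vehicle and 0.110, 0.218, 0.0748 and 0.0991 FPKM with DAPA (libraries 1 to 4 of each). DAPA library 2 was close to the vehicle group and the other DAPA libraries far from it, with a ratio of 2.15 in reads (209 against 97, counting interval 1.69 to 2.77). Both other Hif genes tested missed the threshold, with 1 lower at an unadjusted p below 0.05 and by limma voom. Hif3a is on a list of glucocorticoid and fasting response genes. Of the 31 others tested, 20 fell (64.5%) and 4 rose (12.9%), beside 6.73% and 7.78% of all genes. Tsc22d3 (107 to 49.3 FPKM, adjusted p = 4.19e-10) and Fkbp5 (26.6 to 12.4 FPKM, adjusted p = 1.75e-08) were among those that fell.

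Mycl, a member of the Myc family, was read at 0.468, 0.253, 0.181 and 0.247 FPKM in vehicle libraries 1 to 4 and 0.0655, 0.0211, 0.1 and 0.0979 FPKM in DAPA libraries 1 to 4. Vehicle library 1 was highest by far, and the ratio was 4.08 in reads (106 against 26, counting interval 2.63 to 6.52). Of the 2 other Myc genes 1 rose, Mycn (1.72 to 3.56 FPKM, adjusted p = 0.000109). Tcf24, a basic helix-loop-helix factor, was read at 0.359, 0.597, 0.513 and 0.374 FPKM with vehicle and 0.209, 0.312, 0.184 and 0.341 FPKM with DAPA (libraries 1 to 4 of each). Its highest DAPA library came within reach of its lowest vehicle library, and the ratio was 1.76 in reads (195 against 111, counting interval 1.38 to 2.24).

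Cfap69, a protein of cilia and sperm tails, was even within each group. Cfap69 levels were 0.594, 0.557, 0.641 and 0.600 FPKM in vehicle libraries 1 to 4 and 0.340, 0.322, 0.318 and 0.345 FPKM in DAPA libraries 1 to 4, with a ratio of 1.80 in reads (346 against 192, counting interval 1.51 to 2.16). Ankdd1b, an ankyrin repeat gene, was read at 0.313, 0.195, 0.244 and 0.220 FPKM with vehicle and 0.0896, 0.0434, 0.0686 and 0.0223 FPKM with DAPA (libraries 1 to 4 of each), with a ratio of 4.35 in reads (87 against 20, counting interval 2.65 to 7.47). In both genes no library stood apart from its group.

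Ppp1r27, a regulatory subunit of protein phosphatase 1, had no read in any DAPA library. Its vehicle levels were 0.446, 0.144, 0.310 and 0.587 FPKM, from 9, 3, 6 and 12 reads. Against a floor of 3 reads over the DAPA group its ratio was 9.998, and the exact 95% counting interval for 0 DAPA reads began at 7.64. That limit covers counting error only, and the gene was chosen by these same reads, so it sets no least size of the change. The other genes were Stac2, a partner of muscle calcium channels, at 0.249 ± 0.0514 against 0.145 ± 0.0431 FPKM, Sh2d6 at 0.167 ± 0.0245 against 0.0484 ± 0.0464 FPKM, AI182371 at 0.313 ± 0.163 against 0.107 ± 0.0748 FPKM and LOC118568653 at 0.246 ± 0.106 against 0.0427 ± 0.0673 FPKM. Of AI182371, vehicle library 3 held 0.557 FPKM against 0.219 to 0.241 in the other vehicle libraries, and LOC118568653 had no read in DAPA libraries 3 and 4.

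Beyond that core, promoter windows were searched for other letters on both strands. TATAAA was in 24.1% of the 54 windows of the set against 12.6% of all windows, and CACGTG, the E-box, in 3.70% against 7.86%. The D-box TTATGTAA was in none against 0.888%, and AGAACA with 3 bases before TGTTCT, the core of glucocorticoid response elements, in none against 0.00945%. Both are rare, in 188 and 2 of all 21169 windows, so their lack in 54 windows says little. Motifs added once the genes were known were TTCCCGC, an E2F-type motif (5.56% against 5.98%), TTTGAA, of cell cycle promoters (27.8% against 16.0%), and CCAAT (44.4% against 38.1%). The windows with TTTGAA were mostly not those of the cell division genes. These held it in 2 of 7 windows, the interferon and MHC class I genes in 5 of 8 and the endocrine genes in 3 of 6. Shares in the other role groups ran from 0% to 30%. The windows had a median of 51.0% G and C against 56.3% for all. The motif shares, that of the TTTC core among them, were not adjusted for this difference. Transcripts of the set were 775 to 18179 bases long, and all 61 genes found in RefSeq were protein-coding.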

How the data were processed

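RNA of infarcted mouse hearts was extracted with TRIzol and sequenced from 8 stranded mRNA libraries (TruSeq, an Illumina HiSeq X instrument, paired reads of 150 bases) trimmed with Trimmomatic, per the labels' protocols. HTSeq, DESeq, Cufflinks, StringTie, HISAT2 and SAMtools are named as the authors' tools with no version or role, and GRCh38, a human assembly, as build, per the submitters' processing notes. The table holds mouse genes, so which build was used is uncertain, and printed coordinates and promoters come from RefSeq, GRCm38.p6, where 61 of the 62 genes matched by NCBI Gene identifier and 46 had a promoter window.

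The deposited values are FPKM per library, computed by the authors, with the authors' fold (a linear ratio) and q-value beside them. FPKM steps gave back whole reads for all 17356 genes above 0 in any library (tolerance 0.0001 reads), so total reads, 24990393 to 26823456 per library, are known. On simulated reads 98.46% of 17090 genes came back exactly. One read is worth 0.0373 to 0.04 FPKM on a transcript of 1 kilobase. No per-sample column lacked a sample.

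Differences were tested with the trend method of limma (version 3.58.1 in R 4.3.3), applied to log2(FPKM + 0.1), for genes with a mean of at least 0.05 FPKM over the 8 libraries. The model held group alone and used all 8 libraries, at a Benjamini-Hochberg adjusted p below 0.05 over 14749 genes. The log2(FPKM + 0.1) scale understates changes of low genes, so means are given beside it. Every gene of the set passed the filter. In simulated data on 14659 genes, with 50 weak genes changed at each size, it recovered 22% of those changed 1.5-fold, 58% of those changed 1.7-fold, 70% for 2-fold changes and 94% for 4-fold changes, with 6 false calls of 128. The simulated reads were drawn with little spread beyond counting error. Real reads of the other genes of the range had a median variance over mean of 3.02 with vehicle and 2.71 with DAPA. The simulation was thus kinder than the data, and its shares and false calls hold for simulated reads only. Alternatives were other pseudocounts and filters, limma voom on the recovered reads, rescaling by TMM factors (trimmed mean of M-values) of those reads, each library left out and a replicate block.

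Values in every library are given for the 12 genes of largest ratio among those with at least 40 vehicle reads, the 8 with most vehicle reads and up to 4 per role with most vehicle reads, 37 in all, and group means for the 2 nearest each side of a threshold; Phf11a, Ppp1r27 and single libraries of H2-Q10, AI182371 and LOC118568653 were added after their values were seen. Of each list, up to 4 genes with the smallest p are named. The defining marker Adipoq, genes at 0, the neutrophil genes, Dbh, Fkbp5, Col6a1 and family relatives were named after their values were seen. A gene of the set and some list genes are not reported here. The members, the role groups, the 22 gene lists and the families were chosen with earlier results of these data known. Same-numbered vehicle and DAPA libraries did not deviate together (correlations -0.06, -0.04, 0.01 and -0.01), so numbers were not used as pairs. Replicates differed by more than counting noise in every pair (chi-square per gene 3.59 to 7.95).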

Additional observations from a re-analysis of the deposited data

Results flagged for a closer look

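Over all 62 genes, 7 single libraries stood apart from the rest of their group by a gap test at the 95% level, of 123 groups checked (Ppp1r27 had no DAPA read to check); chance flags about 1 group in 20. H2-Q10 was at 1.16 FPKM in vehicle library 2, AI182371 at 0.557 FPKM and Stac2 at 0.325 FPKM in vehicle library 3, each above the other vehicle libraries of its gene. Atad5 was at 0.535 FPKM in vehicle library 4, above 0.323 to 0.338 in the other vehicle libraries. Oas3 was at 0.553 FPKM in vehicle library 3, below the other vehicle libraries, which still left it above every DAPA library. Chga was at 0.0605 FPKM in DAPA library 1 and at 0 in the other DAPA libraries. Pcdhb21 was at 0.0142 FPKM in DAPA library 4, below 0.0995 to 0.110 in the other DAPA libraries.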

How the results depend on the processing

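The number of genes that the rule takes moved with its limits: 62 as stated, 41 with a ratio of at least 2, 78 with 1.5, 67 from 0.1 FPKM, 46 from 0.3 FPKM, 72 with the name patterns kept, 66 after TMM rescaling, and 77 to 89 with 1 library left out (56 to 61 of the 62 among them, since fewer libraries make overlap rarer). The direction of the log2 difference was fixed by the choice of the genes and is no sign of stability. Of the 37 genes that the rule on most reads and largest ratio gives by library, its size moved by more than the replicate spread for 37 at pseudocount 1, for 21 at pseudocount 0.01 and for 22 under limma voom. Counts over all genes stayed within 1.5 times, with 787 to 906 lower and 855 to 997 higher when 1 library was left out, and 1108 lower and 1050 higher after TMM rescaling. List counts outside the set were followed across the alternatives for part of the lists. These were the cell cycle, interferon, antigen presentation, B and plasma cell, T and NK cell, and macrophage, monocyte and dendritic cell lists. The granulocyte and mast cell, adipocyte, glucocorticoid and fasting, Schwann cell and neuron, and fibroblast and matrix lists were followed too. In these lists, the counts that moved by more than 1.5 times were small ones. Cell cycle genes called lower were 1 without the filter and 1 to 4 with 1 library left out. Interferon genes called higher were 0 to 1 with 1 library left out. B and plasma cell genes called higher were 2 with a pseudocount of 1 and 2 by limma voom. T and NK cell genes called lower were 2 without the filter, and those called higher 0 by limma voom and 0 to 1 with 1 library left out. Macrophage, monocyte and dendritic cell genes called higher were 11 by limma voom. Granulocyte and mast cell genes called lower were 1 to 2 and Schwann cell and neuron genes 0 to 2 with 1 library left out, the latter 0 without the filter. Of the other lists, limma voom called 11 ventricular cardiomyocyte genes lower and 2 higher, against 7 and 1 in the main test. It called 5 smooth muscle and pericyte genes higher, against 3, and 3 erythroid and platelet genes higher, against 0. The cause was not tested.

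With the replicate number as a block, which the labels do not show to be a pairing, 814 genes were called lower and 890 higher. In that fit 35 of the 62 genes of the set were past the threshold. It called 2 granulocyte and mast cell genes and 0 Schwann cell and neuron genes lower. Of the lists followed across the alternatives, no other count moved by over 1.5 times. A shallow depth limits single genes: 35 of the 62 have a DAPA library with under 10 reads.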

Other observations

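Genes that met the same limits on level, ratio and overlap but carried a left-out name numbered 10, and they were looked at after their values were known. Ccl19, a chemokine that draws T cells and dendritic cells to lymphoid tissue, had 0.965 FPKM in vehicle and 0.303 in DAPA. Slc4a1, the anion exchanger of red blood cells, had 0.682 and 0.370. Slc1a1, a glutamate transporter, had 0.796 and 0.396, and Slc14a1, a urea transporter, 0.252 and 0.120. Slc19a3, which carries thiamine, had 0.250 and 0.0857, and Slc4a8, a bicarbonate transporter, 0.565 and 0.329. The 4 others were 9330159F19Rik, Gm10591, Gm36118 and Gm51579, with ratios from 2.18 to 4.41.

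Some genes of the set lie close together in the genome of GRCm38.p6. Amd2 and Hs3st5, and Cth and Ptger3, have no other gene of the table between them. Bub1b and Gpr176 are 3 genes apart, Slfn4 and Slfn9 also 3, and Ms4a1 and Ms4a4c 4.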
